A study of Arabidopsis thaliana with 2 samples.

Results

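The genes described here are the 35 Arabidopsis thaliana genes of phenylpropanoid, flavonoid and anthocyanin metabolism, chosen by their locus identifiers from a table of 33565 annotated genes. They comprise phenylalanine ammonia-lyases, C4H and 4CL enzymes, early and late flavonoid enzymes, sugar and acyl transferases, and MYB, bHLH and WD40 regulators. RNA sequencing compared shoots of wn1, a whitening mutant in the Col-0 background, with shoots of the Col-0 wild type. Both genotypes were sampled untreated at an age of 7 days, after growth on plates at 22 °C in cycles of 16 h light and 8 h dark. The sources used here do not name the mutated gene, the kind of allele or the number of seedlings in a library. Each genotype had 1 library, so differences have no replicate check and no test was made; every statement compares 2 libraries.

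Phenylpropanoid metabolism starts from phenylalanine, which PAL, C4H and 4CL turn into p-coumaroyl-CoA, the shared precursor of lignin monomers and flavonoids. Chalcone synthase, chalcone isomerase and the flavanone and flavonoid hydroxylases form the early flavonoid steps. There the route divides, as FLS1 leads to flavonols, the UV-screening pigments, and DFR and LDOX lead to the purple anthocyanins. The MYB factors MYB11, MYB12 and MYB111 activate early and flavonol genes, whereas a complex of PAP1 or PAP2 with a bHLH factor (TT8, GL3 or EGL3) and the WD40 protein TTG1 activates late anthocyanin genes.

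In wn1 the anthocyanin branch stood apart in size from the early and flavonol steps. All 6 of its genes had FPKM (fragments scaled by transcript length and by the size of the library) at least 2-fold lower in wn1, with a median log2 difference of -1.27. The 5 early flavonoid genes all lay within 2-fold with a median of -0.37, and the 4 flavonol genes lay within 2-fold on both sides of 0 with a median of -0.07. UGT78D2, which adds glucose to both flavonols and anthocyanidins, was counted with the flavonol genes and was higher in wn1, at 0.75. The other flavonol genes were FLS1 at -0.50, UGT78D1 at -0.33 and UGT89C1 at 0.18, so the flavonol median depends on this grouping. Of the other enzyme genes among the 35, 4CL1 and OMT1 were also at least 2-fold lower, at -1.25 and -1.15. The activator PAP1 had 2.99 FPKM in wn1 against 13.5 FPKM in wild type, while the flavonol activator MYB12 had 19.2 FPKM in wn1 against 8.12 FPKM in wild type. Differences are log2 differences of FPKM + 1, wn1 minus wild type, which understate the change of genes of low FPKM.

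Of the 35 genes, 34 averaged 1 FPKM or more over both libraries and are called measured; the remaining gene was PAP2. Among the measured members 10 were at least 2-fold lower in wn1 and 1 was at least 2-fold higher. Over all 18788 measured genes of the table, 3.65% passed 2-fold on the lower side and 3.67% passed it on the higher side. Their median log2 difference was 0.03, against -0.43 for the members. Below 0 lay 26 of the 34 measured members, against 47.1% of all measured genes. None of the members was past 4-fold on this scale.

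No depth accompanies the values, so it was estimated from the steps between low FPKM values, which gave about 15200000 fragments for wn1 and 12500000 fragments for wild type. A transcript of 1 kb at 1 FPKM thus rests on roughly 15.2 fragments in wn1 and 12.5 in wild type. Ratios of FPKM, wn1 over wild type, are given below with a 95% Clopper-Pearson interval made from such estimated fragments, which covers counting error only and says nothing of differences between plants. For 23 measured members the interval lay wholly below 1, for 5 wholly above 1, and for 6 it held 1. In bulk shoots, fewer cells of a type and less RNA per cell cannot be told apart.

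**Figure D1:**
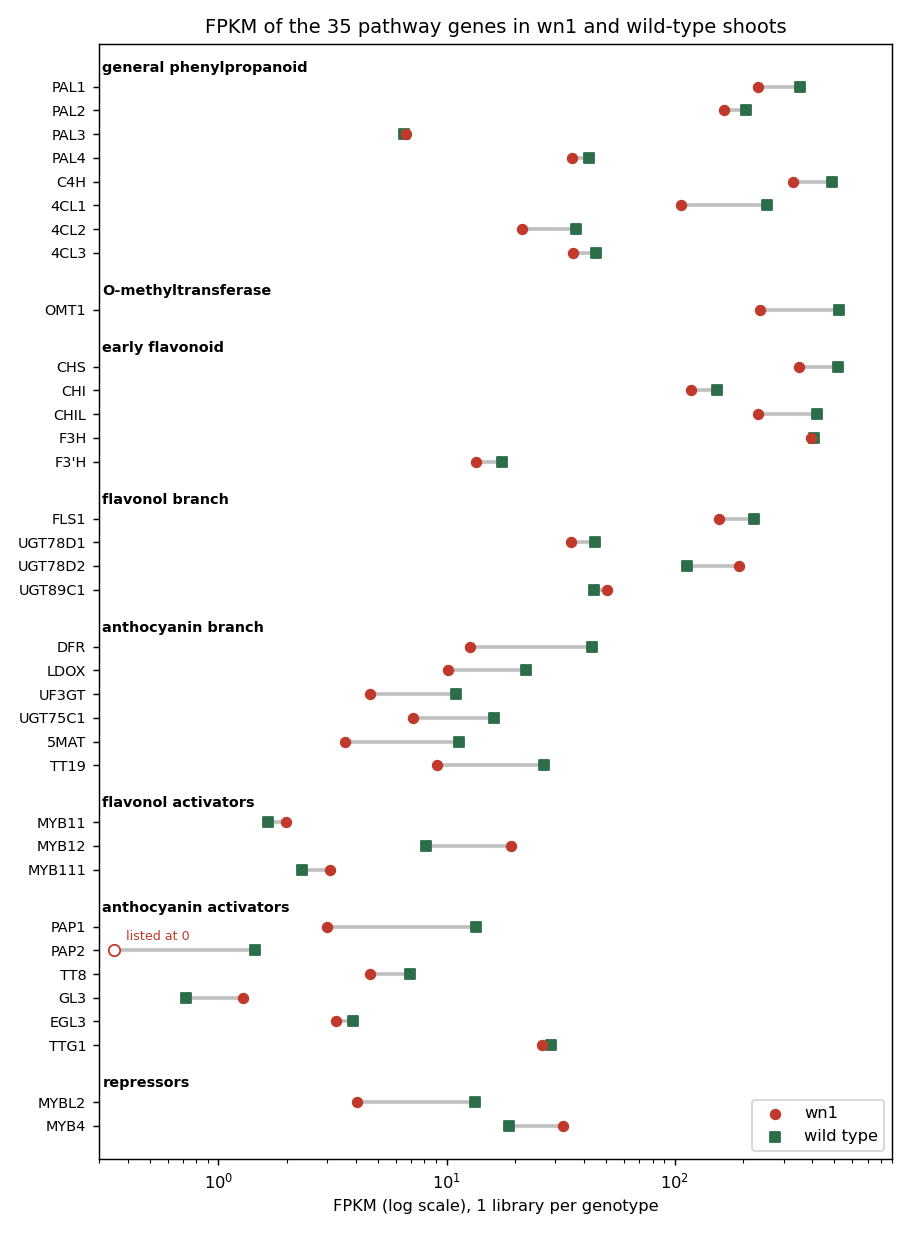
FPKM of the 35 genes on a log axis, wn1 as circles and wild type as squares, grouped by pathway step, 1 library per genotype; PAP2, listed at 0 in wn1, is drawn as an open circle at the left edge. All 6 anthocyanin branch genes have their wn1 value left of the wild-type value, whereas UGT78D2, MYB12 and MYB4 have it on the right.

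The sequences upstream of all 6 anthocyanin branch genes are shown because these genes differed together. They are the bases directly before the annotated gene start, 5′ to 3′ on the gene's strand, from RefSeq's TAIR10.1 genome and annotation. The expression table names TAIR10 and holds no coordinates, so these positions belong to TAIR10.1. DFR lies on the minus strand with the window chr5:17166033-17166282, LDOX on the minus strand with chr4:12006210-12006459, and 5MAT on the minus strand with chr3:11400333-11400582. UGT75C1 is on the minus strand with chr4:8123836-8124045, limited to the 210 bases before its start that overlap no neighbouring gene, and UF3GT is on the minus strand with chr5:21938397-21938646. TT19 is on the plus strand with chr5:5658194-5658415, limited in the same way to 222 bases. Capitals mark the run CCACCGGT, which was noticed in these windows by eye and then counted on both strands.
DFR: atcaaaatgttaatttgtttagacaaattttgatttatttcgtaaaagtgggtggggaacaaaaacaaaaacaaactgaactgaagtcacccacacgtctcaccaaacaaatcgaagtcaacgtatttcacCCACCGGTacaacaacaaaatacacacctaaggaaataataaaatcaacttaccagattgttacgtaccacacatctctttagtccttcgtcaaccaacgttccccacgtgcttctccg
LDOX: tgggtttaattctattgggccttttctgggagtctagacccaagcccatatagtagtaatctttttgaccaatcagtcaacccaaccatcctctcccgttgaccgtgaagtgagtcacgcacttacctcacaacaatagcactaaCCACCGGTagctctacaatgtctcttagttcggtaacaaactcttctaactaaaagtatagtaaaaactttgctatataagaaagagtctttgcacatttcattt
UGT75C1: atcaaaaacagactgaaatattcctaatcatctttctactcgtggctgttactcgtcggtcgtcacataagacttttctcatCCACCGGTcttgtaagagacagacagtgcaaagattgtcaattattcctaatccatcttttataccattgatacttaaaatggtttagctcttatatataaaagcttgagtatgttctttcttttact
5MAT: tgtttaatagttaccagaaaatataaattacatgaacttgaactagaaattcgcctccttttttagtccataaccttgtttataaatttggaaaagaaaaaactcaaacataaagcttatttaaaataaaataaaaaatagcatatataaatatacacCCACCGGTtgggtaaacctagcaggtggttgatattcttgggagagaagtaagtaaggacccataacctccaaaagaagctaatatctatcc
UF3GT: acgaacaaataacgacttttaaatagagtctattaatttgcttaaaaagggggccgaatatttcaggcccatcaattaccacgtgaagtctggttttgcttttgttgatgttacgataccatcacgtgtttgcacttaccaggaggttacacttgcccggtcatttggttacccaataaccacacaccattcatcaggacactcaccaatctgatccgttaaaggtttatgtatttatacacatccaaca
TT19: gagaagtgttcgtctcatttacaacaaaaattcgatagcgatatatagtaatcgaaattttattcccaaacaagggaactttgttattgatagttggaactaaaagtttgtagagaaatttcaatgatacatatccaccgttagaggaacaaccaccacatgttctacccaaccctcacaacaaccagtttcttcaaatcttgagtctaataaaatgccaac
The run CCACCGGT was present in the 250 bases before the start of 4 of the 6 anthocyanin branch genes, DFR, LDOX, UGT75C1 and 5MAT, and in none of the other 29 member windows. It read in the direction of the gene in each of the 4, and its first base lay 119, 105, 128 and 92 bases before the start in that order. Among 26679 windows of the same length before protein-coding genes, 0.232% held it on either strand. Because the run was chosen after these windows were seen, the count is a description, and a run of letters in a window says nothing of what binds there.

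Further motifs were searched by their letters on both strands in the same windows. The MYB-type element ANCNNCC was present before all 6 anthocyanin branch genes, 4 of 5 early flavonoid genes and 2 of 4 flavonol genes, against 48.6% of all windows. In all 4 windows that hold CCACCGGT an ANCNNCC match overlaps that run, starting 2 bases before it, and in DFR this is the only match, so the counts of these motifs are not separate. An E-box, CANNTG, stood before 4 of 6 anthocyanin branch genes, 5 of 5 early flavonoid genes and 1 of 4 flavonol genes, against 55.3% of all windows. The G-box CACGTG, which is also an E-box, stood before 2 of 6 anthocyanin branch genes (DFR and UF3GT), 3 of 5 early flavonoid genes and 0 of 4 flavonol genes, against 6.57% of all windows. The F3H window, which holds 1 of these early G-boxes, overlaps a neighbouring gene. The core ACGT, which every G-box contains, stood before 2 of 6 anthocyanin branch genes, 3 of 5 early flavonoid genes and 1 of 4 flavonol genes, against 44.2% of all windows. An AC element, spelled as ACCTACC or as ACCAACC or as ACCTAAC, stood before 1 gene of each of these groups, against 6.12% of all windows. In the anthocyanin branch that gene was UGT75C1, and the match lay in the bases not printed above.

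The general phenylpropanoid steps were modestly lower in wn1, with 7 of 8 genes below 0, 1 at least 2-fold lower and a median of -0.45. PAL1 (AT2G37040), a main isoform of the entry enzyme, had 232 FPKM in wn1 and 356 FPKM in wild type, a ratio of 0.651 (0.635 to 0.668). PAL2 (AT3G53260) had 164 FPKM in wn1 and 206 FPKM in wild type. PAL4 (AT3G10340) had 35.5 FPKM in wn1 and 41.9 FPKM in wild type. PAL3 (AT5G04230), the least abundant isoform, had 6.62 FPKM in wn1 and 6.52 FPKM in wild type, and its interval held 1. The makeup of the family was similar in both libraries, with PAL1 at 52.9% of the summed PAL FPKM in wn1 and 58.3% in wild type. C4H (AT2G30490), a single-copy cytochrome P450, had 331 FPKM in wn1 and 488 FPKM in wild type, a ratio of 0.678 (0.661 to 0.696).

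The 4CL ligases were uneven. 4CL1 (AT1G51680), which serves mainly lignin, had 107 FPKM in wn1 and 255 FPKM in wild type, a log2 difference of -1.25 and a ratio of 0.418 (0.402 to 0.436). 4CL2 (AT3G21240) had 21.5 FPKM in wn1 and 37.1 FPKM in wild type. 4CL3 (AT1G65060), the isoform linked to flavonoids, had 35.8 FPKM in wn1 and 45.4 FPKM in wild type, a ratio of 0.788 (0.726 to 0.856). The share of 4CL3 in the summed 4CL FPKM was 21.8% in wn1 and 13.5% in wild type. OMT1 (AT5G54160), which methylates both lignin precursors and the flavonol quercetin, had 235 FPKM in wn1 and 523 FPKM in wild type, with a log2 difference of -1.15. It was the most abundant member in wild type and ranked 4 in wn1. Close relatives such as PAL1 and PAL2 or 4CL1 and 4CL2 can share some reads, and the sources used here do not say how such reads were divided.

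Early flavonoid genes were all below 0 and within 2-fold, and 4 of the 5 exceeded 100 FPKM in both libraries. CHS (AT5G13930), the committing enzyme, had 349.8 FPKM in wn1 and 522 FPKM in wild type, a ratio of 0.670 (0.652 to 0.689). CHI (AT3G55120), which closes the flavanone ring, had 118 FPKM in wn1 and 152 FPKM in wild type. CHIL (AT5G05270), a non-catalytic partner of chalcone synthase, had 231 FPKM in wn1 and 419 FPKM in wild type, the largest difference among these 5 at -0.86. F3H (AT3G51240), the flavanone hydroxylase, had 396 FPKM in wn1 and 406 FPKM in wild type, and its ratio of 0.976 had an interval of 0.947 to 1.01. It ranked first of all members in wn1 and 5 in wild type. F3'H (AT5G07990), which adds the hydroxyl group that separates quercetin from kaempferol, had 13.5 FPKM in wn1 and 17.4 FPKM in wild type.

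The flavonol branch split, with 2 genes below and 2 above 0. FLS1 (AT5G08640), the main flavonol synthase of seedlings, had 157 FPKM in wn1 and 222 FPKM in wild type, a ratio of 0.707 (0.676 to 0.739). UGT78D1 (AT1G30530), which adds rhamnose to flavonols, had 35.3 FPKM in wn1 and 44.6 FPKM in wild type. UGT78D2 (AT5G17050), which adds glucose to flavonols and also to anthocyanidins, went the other way with 192 FPKM in wn1 and 114 FPKM in wild type. Its ratio was 1.69 (1.604 to 1.77), the largest among the 24 enzyme and transport genes. UGT89C1 (AT1G06000), a flavonol rhamnosyltransferase, had 50.4 FPKM in wn1 and 44.3 FPKM in wild type, a ratio of 1.14 (1.04 to 1.24). Of the FLS1 relatives, 2 of 5 were measured, FLS3 at 13.1 FPKM in wn1 and 15.8 FPKM in wild type and FLS5 at 12.0 FPKM in wn1 and 8.53 FPKM in wild type. FLS3 and FLS5 lie near each other in the genome, with FLS4 between them, and resemble each other, so their division of reads is uncertain.

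The 6 genes grouped here as the anthocyanin branch were all lower in wn1 and were of low abundance in both libraries. UGT78D2, which also acts on anthocyanidins, was grouped with the flavonol genes and was higher in wn1. DFR (AT5G42800), the first enzyme of the branch, had 12.7 FPKM in wn1 and 43.5 FPKM in wild type, a log2 difference of -1.70 and a ratio of 0.292 (0.255 to 0.334). LDOX (AT4G22880), which forms the coloured anthocyanidin, had 10.14 FPKM in wn1 and 22.2 FPKM in wild type, a ratio of 0.457 (0.385 to 0.541). LDOX was the branch gene closest to the 2-fold limit, at -1.06. UF3GT (AT5G54060), which adds a further sugar to anthocyanins, had 4.62 FPKM in wn1 and 11.1 FPKM in wild type. UGT75C1 (AT4G14090), an anthocyanin glucosyltransferase, had 7.11 FPKM in wn1 and 16.2 FPKM in wild type. 5MAT (AT3G29590), a malonyltransferase, had 3.59 FPKM in wn1 and 11.4 FPKM in wild type, a ratio of 0.315 (0.246 to 0.401). TT19 (AT5G17220), the glutathione transferase-like protein needed for anthocyanin delivery to the vacuole, had 9.08 FPKM in wn1 and 26.6 FPKM in wild type, a ratio of 0.341 (0.280 to 0.412). The upper bound of the counting interval lay below 0.5 for DFR, 5MAT and TT19, and slightly above it for LDOX, UF3GT and UGT75C1.

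A list of 3 further anthocyanin decoration genes outside the members was lower as well, with 2 of 3 at least 2-fold lower and a median of -1.04. BGLU10, a glucosyltransferase of the vacuole, had 14.8 FPKM in wn1 and 32.6 FPKM in wild type. The acyltransferase genes 3AT1 and 3AT2 had 4.50 and 3.87 FPKM in wn1 against 10.3 and 8.15 FPKM in wild type, and these relatives may share reads.

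**Figure D2:**
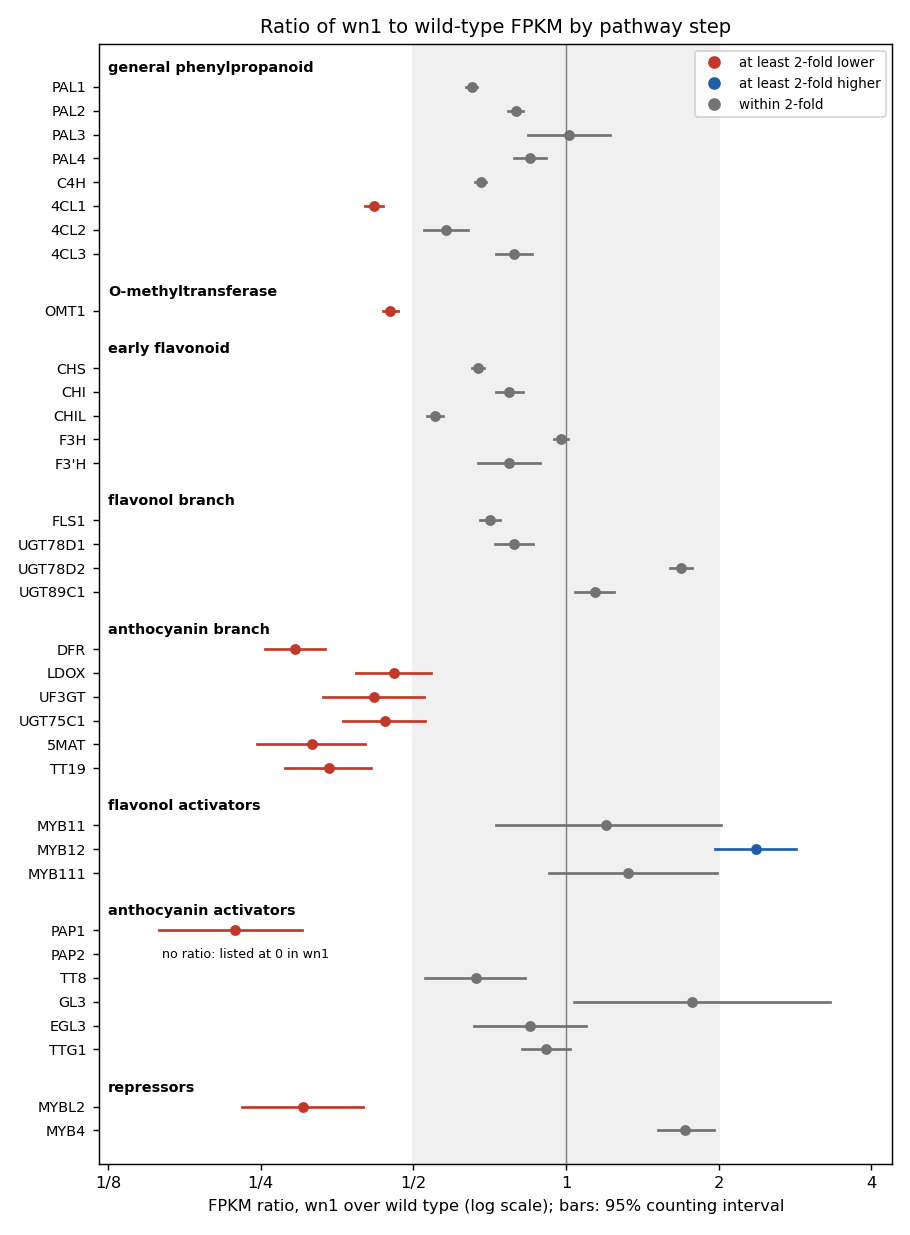
Ratio of FPKM, wn1 over wild type, on a log axis for the 34 measured genes, with bars for the 95% counting interval from estimated fragments and grey shading for the range within 2-fold. The 6 anthocyanin branch genes, PAP1, MYBL2, 4CL1 and OMT1 lie left of the shading and MYB12 lies right of it; colours follow the rule on FPKM + 1.

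Ratios taken within a library need no scaling between libraries. The summed FPKM of the 6 anthocyanin branch genes was 47.3 in wn1 and 131 in wild type, which is 4.26 per 100 FPKM of the early flavonoid genes in wn1 and 8.64 in wild type. The summed FPKM of the 4 flavonol genes was 434 in wn1 and 424 in wild type, or 39.2 per 100 FPKM of the early genes in wn1 and 27.98 in wild type. The largest part of the flavonol sum was UGT78D2 in wn1 and FLS1 in wild type. UGT78D2, which also acts on anthocyanidins, had 192 FPKM in wn1 and 114 FPKM in wild type, the largest rise of the 4 genes. FLS1, with 157 FPKM in wn1 and 222 FPKM in wild type, and UGT78D1 were lower in wn1, and UGT89C1 was slightly higher. DFR and FLS1 use the same dihydroflavonol substrates, and DFR had 8.11 FPKM per 100 FPKM of FLS1 in wn1 and 19.6 in wild type. Against F3H, the enzyme just before the fork, DFR had 3.21 FPKM per 100 in wn1 and 10.7 in wild type. UGT78D2 had 122 FPKM per 100 FPKM of FLS1 in wn1 and 51.3 in wild type.

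**Figure D3:**
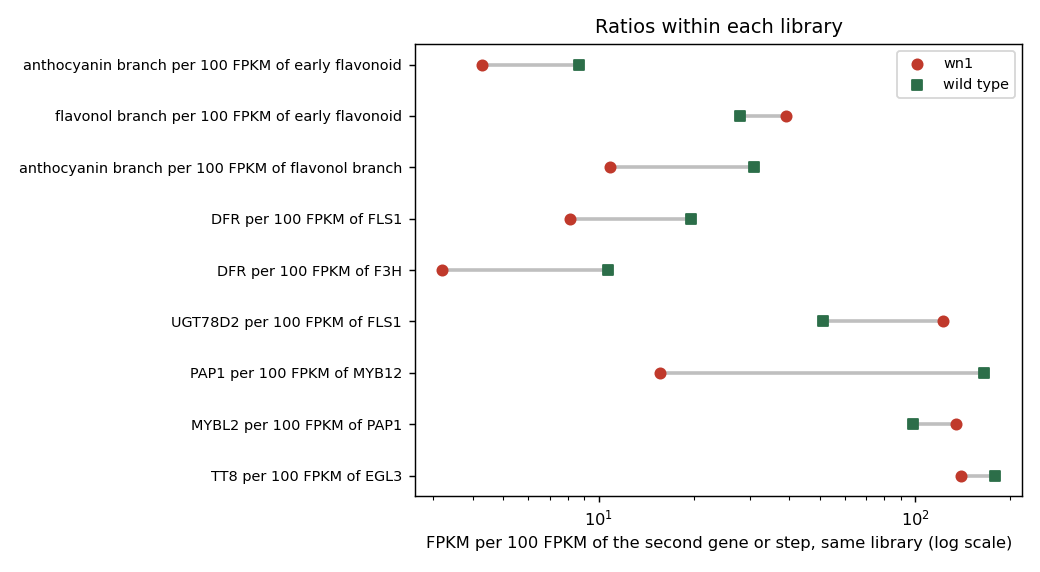
FPKM of one gene or summed step per 100 FPKM of another in the same library, on a log axis, wn1 as circles and wild type as squares, 1 library per genotype. The anthocyanin branch is lower in wn1 against both the early and the flavonol steps. The widest gap is that of PAP1 to MYB12, at 15.6 in wn1 and 166 in wild type. PAP1 and MYB12 were the members with the lowest and the highest log2 difference, so a wide gap follows from pairing them.

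Among the 10 measured regulators, PAP1 and MYBL2 were at least 2-fold lower in wn1, MYB12 was at least 2-fold higher, and 7 were within 2-fold. PAP1 (AT1G56650), the MYB activator of anthocyanin genes, had a log2 difference of -1.86, the lowest of all members, and a ratio of 0.222 (0.158 to 0.302) from about 50 fragments in wn1 and 187 in wild type. PAP2 (AT1G66390), its close relative, was listed at 0 in wn1 and had 1.44 FPKM in wild type, about 18 fragments, so no ratio is given. An entry of 0 can be a failed estimate, and the related genes MYB113 and MYB114 were listed at 0 in both libraries. Reads shared among these MYB genes cannot be separated here.

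The partners of PAP1 in the activating complex differed less. TT8 (AT4G09820) had 4.61 FPKM in wn1 and 6.94 FPKM in wild type, a ratio of 0.664 (0.526 to 0.831). EGL3 (AT1G63650) had 3.29 FPKM in wn1 and 3.88 FPKM in wild type, and GL3 (AT5G41315) had 1.28 FPKM in wn1 and 0.724 FPKM in wild type. The interval of EGL3 held 1, and that of GL3, at 1.034 to 3.31, rested on about 42 fragments in wn1 and 19 in wild type. TTG1 (AT5G24520), the WD40 scaffold, had 26.1 FPKM in wn1 and 28.6 FPKM in wild type with an interval of 0.820 to 1.02. PAP1 had 11.5 FPKM per 100 FPKM of TTG1 in wn1 and 47.0 in wild type.

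All 3 flavonol activators lay above 0, with a median of 0.30. MYB12 (AT2G47460) was the 1 member at least 2-fold higher in wn1, with a log2 difference of 1.15 and a ratio of 2.36 (1.97 to 2.84). MYB111 (AT5G49330) had 3.09 FPKM in wn1 and 2.33 FPKM in wild type, and MYB11 (AT3G62610) had 1.98 FPKM in wn1 and 1.65 FPKM in wild type. The intervals of MYB111 and MYB11 both held 1.

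The repressors went apart. MYBL2 (AT1G71030), a small MYB that blocks the anthocyanin-activating complex, had 4.04 FPKM in wn1 and 13.3 FPKM in wild type, a log2 difference of -1.51 and a ratio of 0.303 (0.230 to 0.398). MYB4 (AT4G38620), a repressor of C4H, had 32.3 FPKM in wn1 and 18.8 FPKM in wild type, a ratio of 1.72 (1.51 to 1.96). MYBL2 had 135 FPKM per 100 FPKM of PAP1 in wn1 and 98.8 in wild type, from about 75 fragments of MYBL2 and 50 of PAP1 in wn1. Against TT8 it went the other way, at 87.6 FPKM per 100 in wn1 and 192 in wild type. Further regulators outside the members had a median of 0.43 over 7 measured genes of 9, all within 2-fold. Among them LBD39 and LBD38, nitrogen-responsive repressors of anthocyanin genes, had 35.02 and 41.4 FPKM in wn1 against 17.3 and 26.8 FPKM in wild type. CPC, a small MYB that competes within the complex, had 14.1 FPKM in wn1 and 7.63 FPKM in wild type, and LBD37 had 63.7 FPKM in wn1 and 75.0 FPKM in wild type.

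Light inputs of the pathway were higher in wn1 in 4 of 8 cases at 2-fold or more and lower in 1, with a median of 1.117. HY5, the bZIP factor that promotes flavonoid genes in light, had 109 FPKM in wn1 and 26.5 FPKM in wild type, and its relative HYH had 256 FPKM in wn1 and 74.3 FPKM in wild type. RUP1 and RUP2, which switch off the UV-B receptor UVR8, had 41.3 and 122 FPKM in wn1 against 9.59 and 31.7 FPKM in wild type. UVR8 itself had 36.3 FPKM in wn1 and 32.6 FPKM in wild type. PIF3, a phytochrome-interacting factor that can activate anthocyanin genes, was lower with 19.6 FPKM in wn1 and 46.6 FPKM in wild type. In these libraries high HY5, HYH and RUP values stood beside low values of the anthocyanin branch. A link between them was not tested.

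**Figure D4:**
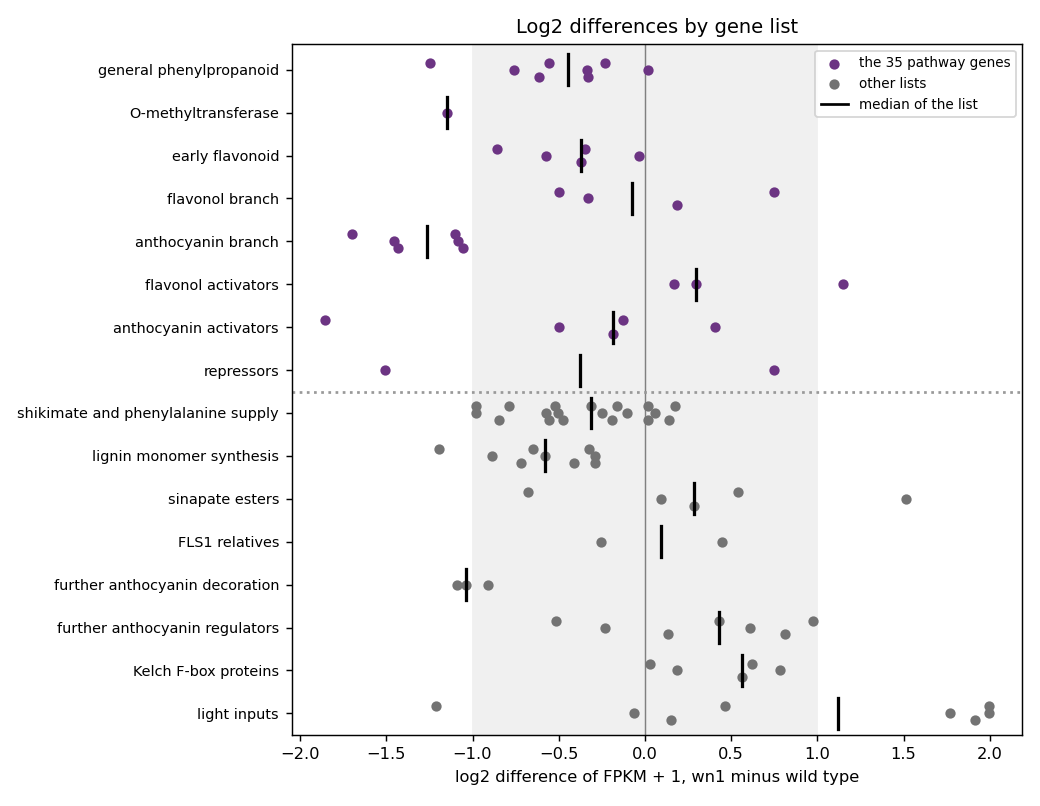
Log2 difference of FPKM + 1, wn1 minus wild type, for each measured gene by list, with black bars for list medians and grey shading for the range within 2-fold; the lists above the dotted line hold the 35 pathway genes. Anthocyanin branch and further decoration genes lie near or below -1, early and lignin genes lie mostly between -1 and 0, and 4 light input genes lie above 1.

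Neighbouring pathways fed by or drawing on phenylpropanoids were also measured. For shikimate and phenylalanine supply, all 19 genes were within 2-fold, 14 of them below 0, and the median was -0.31. The entry synthases DHS1 and DHS3 had 19.1 and 96.2 FPKM in wn1 against 38.7 and 191 FPKM in wild type, and the chorismate synthase gene EMB1144 had 52.1 FPKM in wn1 and 94.5 FPKM in wild type. Lignin monomer genes were below 0 in 9 of 9 cases (median -0.58), and 1 was at least 2-fold lower. That gene was HCT, which diverts coumaroyl units to lignin, with 115 FPKM in wn1 and 264 FPKM in wild type. CCoAOMT1 had 391 FPKM in wn1 and 643 FPKM in wild type, and CAD5 had 129.7 FPKM in wn1 and 240.2 FPKM in wild type.

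Sinapate ester genes, which make other UV-screening phenolics, had 4 of 5 measured members above 0 and a median of 0.29. UGT84A2, which makes sinapoylglucose, had 99.7 FPKM in wn1 and 34.3 FPKM in wild type, a log2 difference of 1.51. SNG1, which makes sinapoylmalate, had 287 FPKM in wn1 and 197 FPKM in wild type, while SCPL10 had 31.0 FPKM in wn1 and 50.2 FPKM in wild type. The Kelch F-box genes, whose products mark phenylalanine ammonia-lyase or chalcone synthase for breakdown, all lay within 2-fold and above 0, with a median of 0.57. Among them KFB01, KFB20 and KFB39 had 11.5, 139 and 70.8 FPKM in wn1 against 6.26, 89.6 and 47.5 FPKM in wild type, and KFB-CHS had 189 FPKM in wn1 and 166 FPKM in wild type.

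Markers of tissues that could carry these genes were read in the same libraries. Shoot markers were abundant, with RBCS1A at 13647 FPKM in wn1 and 19784 FPKM in wild type, CA1 at 2806 FPKM in wn1 and 5603 FPKM in wild type, and LHCB2.1 at 1791 FPKM in wn1 and 2596 FPKM in wild type. All 5 root markers were detected as well, 4 of them below 0, and the median of the 5 was -0.43. Their summed level was 2279 FPKM in wn1 and 1599 FPKM in wild type, nearly all of it from PYK10, the 1 marker above 0. None of the root markers was at 0, and EXPA7 had 22.7 FPKM in wn1 and 35.9 FPKM in wild type. COBL9 had 7.59 FPKM in wn1 and 12.5 FPKM in wild type, and PYK10 had 2225 FPKM in wn1 and 1521 FPKM in wild type. Seed storage and oil body markers were also lower in wn1, with all 3 measured of 4 at least 2-fold lower. CRC had 1.597 FPKM in wn1 and 24.3 FPKM in wild type. CRA1 had 7.81 FPKM in wn1 and 42.3 FPKM in wild type, OLEO1 had 4.26 FPKM in wn1 and 14.4 FPKM in wild type, and the 4 markers summed to 14.2 FPKM in wn1 and 82.1 FPKM in wild type. The part of root or seed tissue in the members' values was not tested.

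Of 8 genes for seed coat proanthocyanidins, 4 were listed at 0 in both libraries, and BAN was listed at 0 in wn1 and at 0.0647 FPKM in wild type. The 1 measured gene of that list was TTG2, also active in trichomes, at 5.22 FPKM in wn1 and 9.07 FPKM in wild type. Trichome markers were within 2-fold, with TRY at 2.87 FPKM in wn1 and 4.57 FPKM in wild type, GL2 at 2.88 FPKM in wn1 and 2.24 FPKM in wild type, and GL1 at 1.14 FPKM in wn1 and 1.25 FPKM in wild type. Shoot epidermis markers had a median of 0.24 and none was past 2-fold, with FDH at 263 FPKM in wn1 and 197 FPKM in wild type, PDF1 at 318 FPKM in wn1 and 268 FPKM in wild type, and CER6 at 298 FPKM in wn1 and 537 FPKM in wild type.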

How the data were processed

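The submitters' processing notes name Bowtie and TAIR10. The authors deposited 1 table of FPKM values per annotated gene, with no counts, strand setting or depth, and the sources used here do not give the counter, its version or any filter. The columns WN and WT were matched to wn1 and wild type by name, and 2 columns naming other material were not used.

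For every gene the log2 of (wn1 + 1)/(wild type + 1) was calculated. Genes averaging 1 FPKM or more were kept and counted as higher or lower at 2-fold. The members, the 14 other lists with 92 genes and these rules were chosen with earlier results of these data known. All 35 members were described; in each other list the named genes were the 3 with the largest absolute difference and the one with the highest mean, and members of those lists named beyond that (UVR8, PIF3, BAN, MYB113 and MYB114) were chosen after their values were seen.

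Depth was estimated from 994 genes with 1 transcript and both values below 0.3 FPKM. Of their ratios, 84.8% lay within 0.5% of a ratio of whole numbers up to 6 times 0.822, against 1.41% for a step 3 percent larger, so wn1 was 1.22 times as deep as wild type. Wild-type fragments followed from 901 transcripts of at least 1000 bases by RefSeq length. Counting intervals used the longest listed transcript, so they are approximate. The steps were tested on simulated data with numpy 2.4.6 and scipy 1.17.1 under Python 3.11.15. The alternatives changed the pseudocount to 0.1, raised the filter to 5 FPKM or dropped it, and used 3 other scalings or a threshold of 4-fold. Division by the sum of all rows was not used, because 1 row held 54.1% of the wn1 column.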

Additional observations from a re-analysis of the deposited data

How the results depend on the processing

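The 11 members past 2-fold were past it under each of the 6 other settings with that threshold, namely 0.1 as pseudocount, a filter at 5 FPKM, no filter, centring on the median of all genes, a common total of nuclear protein-coding genes and a common upper quartile. No further measured member passed it, and at 5 FPKM or a common upper quartile some members of low level were left out. With no filter PAP2 was counted too, giving 11 lower. At 4-fold, 0 members were lower and 0 higher. The median of the members ranged from -0.41 to -0.53, that of the anthocyanin branch from -1.25 to -1.39, that of the early flavonoid genes from -0.35 to -0.41, that of the general phenylpropanoid genes from -0.43 to -0.48, and that of the flavonol branch from -0.05 to -0.11. The only measured member to change sign was PAL3, under centring and the upper quartile. No scaling moved the median of all genes by more than 0.1. No paired analysis was possible because there was 1 library per genotype. Depth limits the least abundant members: MYB11, MYB111, GL3, PAP1, PAP2, MYBL2 and 5MAT rested on fewer than 100 estimated fragments in wn1.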
